A study of Mus musculus with 2 samples.

Results

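The genes described here are the lysosomal enzymes and membrane proteins of primary mouse chondrocytes, with the proteins that sort enzymes to the lysosome and the pump that acidifies it. They were taken as the genes that the pathway column of the deposited table places in the KEGG lysosome pathway, ko04142, after leaving out the clathrin chains, the ABC transporters and *Npc1*, *Npc2*, *Igf2r*, *Hyal1* and *Slc11a2*. This gave 114 genes of the 124 in the pathway and of the 22156 in the table. The rule uses no measured value of the genes.

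Chondrocytes from rib cartilage of newborn mice on a C57BL/6 J background were kept as a monolayer in DMEM/F12 with serum, and their RNA was sequenced in 1 library from control mice and 1 library from *Myl3*-KO mice. *Myl3*-KO mice carry floxed *Myl3* alleles and a Cre recombinase under the *Col2a1* promoter, a promoter of cartilage cells. The controls are called WT in the sample labels and floxed littermates without Cre in the study's methods, and neither source used here says how many animals each library holds. The methods name rib and articular cartilage as sources of the cells, and the labels name rib cartilage alone.

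The control library held 17612434.91 expected counts and the *Myl3*-KO library 13477976.98, an expected count being an estimated number of reads per gene. A floor of 3 counts amounts to 0.170 CPM (counts divided by the library total and multiplied by 1000000) for the control and 0.223 CPM for *Myl3*-KO. *Myl3* itself had 0 counts in both libraries, and so gave no check of the labels. Among 10 chondrocyte markers *Acan*, *Matn1*, *Matn3* and *Hapln1* were at 0 in both libraries, *Col2a1* had 30 counts in the control library against 27 in *Myl3*-KO, and *Sox9* had 866 and 480. Most defining markers of the labelled cell type were thus listed at 0 or low. Among 8 fibroblast markers the collagen gene *Col1a2* had the most counts, 211652 and 189213. In the same list *Thy1* was at 0 in both libraries and *Fap* had 1 and 0. Whether a listing at exactly 0 reflects the cells or the counting was not tested.

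Lysosomes are acidic organelles in which hydrolases break down proteins, glycans, lipids and nucleic acids delivered by endocytosis and autophagy. Most soluble hydrolases receive a mannose phosphate tag in the Golgi and are carried by receptors and clathrin adaptors to endosomes, and a proton pump, the V-ATPase, keeps the lumen acidic. The transcription factors TFEB, TFE3 and MITF bind a short palindrome, the CLEAR element, in front of many lysosomal genes. In cartilage, lysosomal glycosidases, sulfatases and cathepsins degrade proteoglycans and collagen, and β-galactosidase encoded by *Glb1* is the enzyme read by the senescence-associated β-galactosidase stain that the study used on chondrocytes.

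Promoter sequences were examined for the CLEAR element, because it is known from the promoters of many lysosomal genes. RefSeq promoters of GRCm38.p6, each running from 250 bases before to 50 bases after a gene's start, were found for 90 of the 114 genes by symbol and numbered 107. The core of the element, TCACGTGA, which reads the same on both strands and contains the E-box CACGTG, was present in 10 of these promoters (9.35%), belonging to 9 genes. It was present in 0.974% of all 32851 promoters of the table and in 1.81% of the promoters of genes tested below. The E-box was present in 24 of the 107 promoters (22.4%), against 7.15% of all promoters. Among genes tested it was present in 26.4% of the promoters of lysosomal genes, against 9.86% of the promoters of all genes tested. A match is a stretch of letters and not a measured binding site. The windows around the core in 6 of the 9 genes are shown because they hold the element in front of a channel, proteases, a sulfatase activator and the gene with the lowest ratio, with the core in capitals and each sequence read towards the gene.
Mcoln1 (chr8:3500447-3500506, plus strand): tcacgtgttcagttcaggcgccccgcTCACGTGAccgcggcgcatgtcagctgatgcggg
Ctsd (chr7:142387893-142387952, minus strand): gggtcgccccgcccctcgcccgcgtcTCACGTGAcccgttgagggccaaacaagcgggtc
Cln3 (chr7:126583325-126583384, minus strand): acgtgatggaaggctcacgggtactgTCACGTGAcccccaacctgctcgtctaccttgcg
Ctsa (chr2:164833734-164833772, plus strand): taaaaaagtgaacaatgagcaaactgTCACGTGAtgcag
Sumf1 (chr6:108185584-108185621, minus strand): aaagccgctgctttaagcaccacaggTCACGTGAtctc
Gla (chrX:134601200-134601255, minus strand): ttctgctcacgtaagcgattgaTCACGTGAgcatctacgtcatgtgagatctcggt
Gla (chrX:134601167-134601226, minus strand): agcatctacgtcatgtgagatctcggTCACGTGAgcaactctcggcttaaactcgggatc
The windows come from the 250 bases before the start site. *Mcoln1* encodes the calcium channel mucolipin 1, *Ctsd* the aspartic protease cathepsin D, *Ctsa* the carboxypeptidase cathepsin A, *Cln3* a lysosomal membrane protein lost in Batten disease, *Sumf1* the enzyme that activates sulfatases, and *Gla* α-galactosidase A, whose promoter held the core at both places shown. The other genes with the core were *Atp6v0d1*, *Cd164* and *Gnptg*.

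The first question was which of these genes differed between the libraries. Every gene with 10 or more counts over the libraries was tested with an exact binomial test, two-sided, in which the library totals set the share of its rounded counts that each library should hold, and p-values were adjusted by Benjamini-Hochberg over all 12431 genes so tested. It compares the reads of 2 libraries and not the genotypes. With 1 library per genotype no difference has a replicate check, and genotype, animal and culture cannot be told apart. The log2 ratio is that of CPM in *Myl3*-KO over the control, with counts under 3 raised to 3, and its 95% Clopper-Pearson interval covers counting error only. Calls required an adjusted p under 0.05 together with a log2 ratio of 0.5 or more, or of -0.5 or less.

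Of the 114 lysosomal genes, 95 reached this number of counts. In the *Myl3*-KO library 4 of them were called higher, *Idua*, *Ctso*, *Ap1g2* and *Ctns*, and 0 were called lower. The number called higher was 2 with TMM factors, DESeq2 size factors, the FPKM ratio or a shift by the median ratio of genes of like GC content and length, and 0 when a coefficient of variation of 0.1 or more between libraries was assumed. Over all genes tested, 447 were called higher with TMM factors, 449 with DESeq2 size factors and 504 with the FPKM ratio. The shift gave 335, library totals gave 501 and a coefficient of variation of 0.1 gave 41. By library totals 4.21% of the lysosomal genes tested were called higher, beside 4.03% of all genes tested. Of all genes tested, 1.37% were called lower. The share of lysosomal genes called higher was therefore near the background. The differences were small, as the tested lysosomal genes ran from a log2 ratio of -0.34 to 0.57 and 90 of the 95 lay between -0.5 and 0.5. For 75 of them the whole counting interval lay inside these limits.

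With no limit on the ratio, 31 of the 95 genes were higher (32.6%) and 7 lower (7.37%) by the exact binomial test (adjusted p under 0.05), beside 18.6% and 16.8% of all genes tested. When the log2 ratio had to reach 1 in size, 0 lysosomal genes were called, where all genes tested gave 1.15% higher and 0.394% lower. The counts with no limit moved with the scaling. They were 22 higher (23.2%) and 10 lower (10.5%) with TMM factors, where all genes gave 15.6% and 19.9%. With DESeq2 size factors they were 25 (26.3%) and 10 (10.5%), where all genes gave 15.9% and 19.5%. After the shift by GC content and length they were 22 (23.2%) and 6 (6.32%), where all genes gave 13.4% and 15.5%. The median log2 ratio over the 95 genes was 0.10, with quartiles of -0.02 and 0.19, beside a median of 0.02 and quartiles of -0.15 and 0.20 over all genes tested. The ratio was above 0 in 68 of the 95 lysosomal genes (71.6%) and in 52.7% of all genes tested. The 114 genes together took 1.01% of the counts in the control library against 1.06% in *Myl3*-KO. In bulk RNA, fewer cells of a type and less RNA per cell cannot be told apart.

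**Figure D1:**
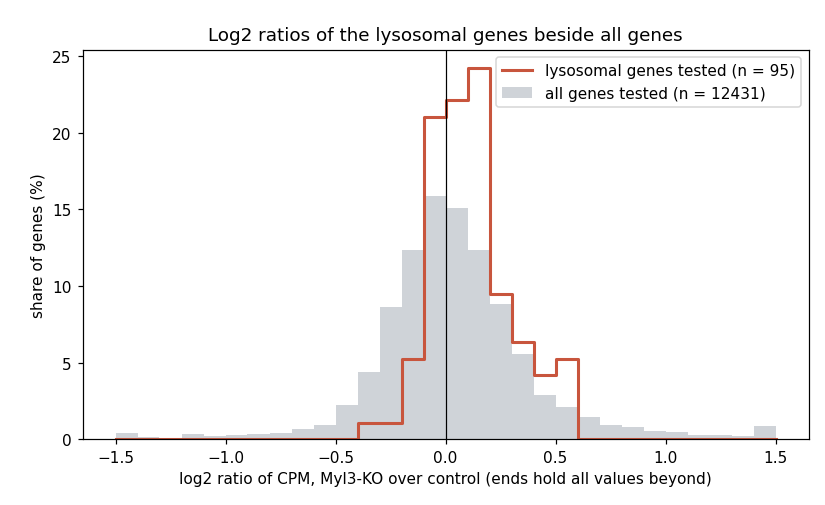
Share of genes (%, vertical axis) by log2 ratio of CPM in *Myl3*-KO over control (horizontal axis, bins of 0.1) for the 95 lysosomal genes tested (red line) and the 12431 genes tested (grey bars). The lysosomal genes lie between -0.34 and 0.57, with a median of 0.10, inside the wider distribution of all genes.

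Levels were compared between genes on the FPKM scale, which scales reads by transcript length and library. The most abundant lysosomal transcript was *Cd63*, a tetraspanin of late endosomes, at 715.98 FPKM in the control library against 695.37 in *Myl3*-KO. It was followed by *Psap*, the precursor of the saposins that help hydrolyse sphingolipids, at 395.81 and 447.46 FPKM. *Lamp1*, one of the heavily glycosylated proteins that line the lysosomal membrane, had 304.65 and 316.09 FPKM. Altogether 11 of the 114 genes were above 100 FPKM in both libraries and 23 were under 1 FPKM in both, so the genes spanned the range from major transcripts to undetected ones.

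Several of the undetected genes are best known from other tissues. Both libraries had 0 counts for 12 genes, which allows up to 0.170 CPM for the control and 0.223 CPM for *Myl3*-KO. They were the proteases *Ctsc*, *Ctse*, *Ctsg*, *Ctsj*, *Ctsm*, *Ctss* and *Napsa*, the nuclease *Dnase2b*, the saposin-like *Psapl1*, the dendritic cell membrane protein *Lamp3*, and the glycoprotein hydrolases *Aga* and *Manba*. *Aga* and *Manba* encode enzymes of lysosomes in most cells, and for them too the source of the 0 was not tested. A further 7 genes had counts but too few for the test. These were *Acp5* with 2 counts in the control library against 4 in *Myl3*-KO, *Atp6v0d2* with 3 and 1, *Slc11a1* with 2 and 3, *Ap3b2* with 0 and 3, *Ap1m2* with 1 and 0, and *Laptm5* and *Ctsw* with 2 in each library. *Acp5* and *Atp6v0d2* are osteoclast genes, and *Slc11a1* and *Laptm5* are genes of macrophages and other blood cells.

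**Figure D2:**
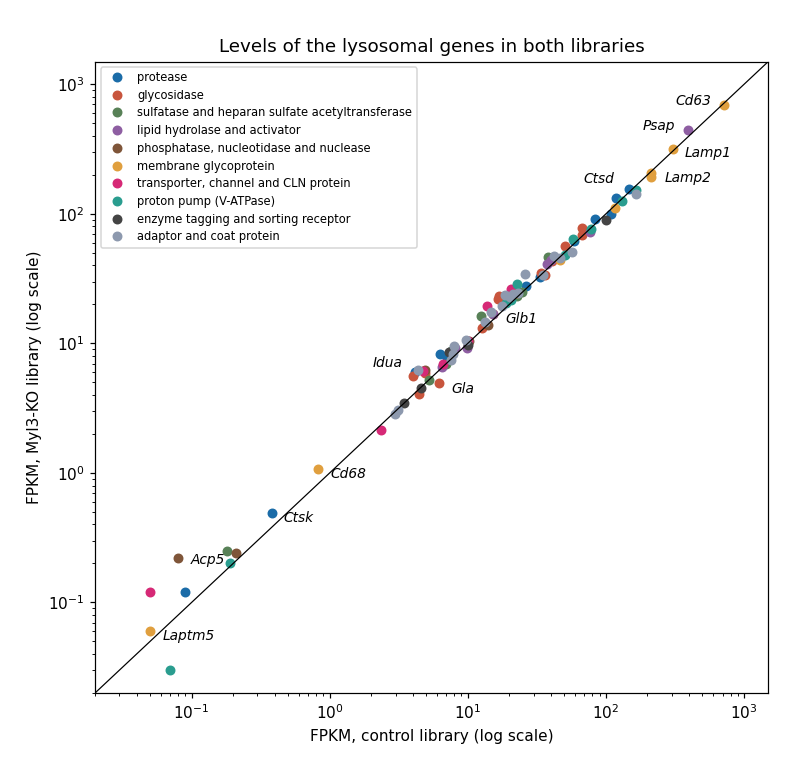
FPKM in the control library (horizontal axis, log scale) against FPKM in the *Myl3*-KO library (vertical axis, log scale) for the lysosomal genes above 0 in both, coloured by role, with the line of equal values. The points lie close to the line from *Laptm5* at 0.05 and 0.06 FPKM to *Cd63* at 715.98 and 695.37 FPKM, and scatter most among the genes under 1 FPKM.

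The glycosidases remove sugars from glycoproteins, glycolipids and glycosaminoglycans. Of the 16 in the set, 14 were tested, and their median log2 ratio was 0.12. By the exact binomial test (adjusted p under 0.05) 5 were higher (35.7%) and 1 lower (7.14%), beside 18.6% and 16.8% of all genes tested. *Idua* (ENSMUSG00000033540, chromosome 5 from 108660331 to 108684557, plus strand) encodes α-L-iduronidase, which degrades dermatan and heparan sulfate. It had 225 counts in the control library against 256 in *Myl3*-KO, or 12.8 and 19.0 CPM. Its log2 ratio of 0.57 (95% interval 0.31 to 0.84, adjusted p = 0.000104, exact binomial test) was the highest of all lysosomal genes tested. Its locus overlaps *Dgkq* (571.96 and 538.05 counts, log2 ratio 0.30) and *Slc26a1* (9 and 8 counts), between which the counting could have divided reads, and its FPKM ratio was below the limit at 0.49.

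The gene with the lowest ratio was also a glycosidase. *Gla* had 348 counts in the control library against 210 in *Myl3*-KO, or 19.8 and 15.6 CPM, a log2 ratio of -0.34 (95% interval -0.60 to -0.09, adjusted p = 0.0234, exact binomial test). The ratio was smaller than the limit for a call, and the adjusted p was 0.111 after the shift by GC content and length described below. *Man2b1*, lysosomal α-mannosidase, was just under the limit on the other side, with 1129 and 1189 counts and a log2 ratio of 0.46 (95% interval 0.34 to 0.58). Its counts were nearly equal in the libraries, of which the *Myl3*-KO library had the lower total.

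*Glb1*, the β-galactosidase gene, had 645 counts in the control library against 549 in *Myl3*-KO, or 15.28 and 17 FPKM. Its log2 ratio was 0.15, with an interval from -0.01 to 0.32 that holds 0 and lies inside the limits for a call (adjusted p = 0.152, exact binomial test). *Fuca1*, the fucosidase gene, had 1608 and 1157 counts and a log2 ratio of -0.09 (-0.20 to 0.02), and neither gene met the test. *Neu1*, the sialidase, had 213 and 197 counts (log2 ratio 0.27, -0.01 to 0.56). *Hexa*, the α subunit of β-hexosaminidase A, had 1437 and 1167 counts (log2 ratio 0.09, -0.03 to 0.20), and its interval also holds 0. The most abundant glycosidases were *Gaa*, acid α-glucosidase, at 67.02 and 77.63 FPKM (log2 ratio of CPM 0.16, 0.09 to 0.22) and *Gusb*, β-glucuronidase, at 67.19 and 68.8 FPKM (0.06, -0.02 to 0.14).

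The sulfatases and their partners remove sulfate from glycosaminoglycans and sulfolipids. All 9 were tested, and their median log2 ratio was 0.14. By the exact binomial test (adjusted p under 0.05) 2 were higher (22.2%) and 0 lower, beside 18.6% and 16.8% of all genes tested. *Arsa*, arylsulfatase A, had 713 counts in the control library against 701 in *Myl3*-KO and a log2 ratio of 0.36 (0.21 to 0.51). *Ids*, iduronate sulfatase, was level between the libraries at 122 CPM in each. *Arsg* was listed with a log2 ratio of 0.52 but had only 10 and 11 counts, an interval from -0.85 to 1.92 and an adjusted p of 0.669 in the exact binomial test. A change in *Arsg* was not detectable at this depth.

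The proteases cleave proteins delivered to the lysosome. Of 19 protease genes, 11 were tested, and their median log2 ratio was 0.12. By the exact binomial test (adjusted p under 0.05) 5 were higher (45.5%) and 0 lower, beside 18.6% and 16.8% of all genes tested. *Ctso* (ENSMUSG00000028015, chromosome 3 from 81932601 to 81956725, plus strand) encodes the cysteine protease cathepsin O. It had 254 counts in the control library against 283 in *Myl3*-KO, or 4.16 and 6.05 FPKM, and its log2 ratio was 0.54 (95% interval 0.29 to 0.79, adjusted p = 0.00011, exact binomial test). *Ctso* overlapped no other counted gene and was called under both other scalings and by the FPKM ratio, but not with a preset coefficient of variation between libraries of 0.1 or more. *Ctsh*, an aminopeptidase, was close to the limit with 150 and 159 counts (log2 ratio 0.47, 0.14 to 0.80).

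The abundant cathepsins differed little. *Ctsd* had 5548 counts in the control library against 4490 in *Myl3*-KO, a log2 ratio of 0.08 (0.02 to 0.14, adjusted p = 0.0188, exact binomial test) that did not meet the test with TMM factors (adjusted p = 0.142) or DESeq2 size factors (0.116). *Ctsa* had 3553.59 and 2954.77 counts and a log2 ratio of 0.12 (0.05 to 0.19), and its locus overlaps *Neurl2* and *Pltp*. *Ctsb*, a cysteine protease, had 4940.42 and 3937.23 counts and a log2 ratio of 0.06 (-0.00 to 0.12). These intervals bound the differences in counting to far less than the limit for a call. *Ctsk*, the collagen-degrading cathepsin of osteoclasts, had 10 counts in each library, and its interval from -1.03 to 1.81 leaves its ratio unresolved.

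Among lipid hydrolases and their activators, 8 of 9 genes were tested, and the median log2 ratio was 0.13. By the exact binomial test (adjusted p under 0.05) 3 were higher (37.5%) and 0 lower, beside 18.6% and 16.8% of all genes tested. *Psap* had 18444 counts in the control library against 15952 in *Myl3*-KO, the most of any lysosomal gene. Its log2 ratio of 0.18 (0.15 to 0.21, adjusted p = 1.04e-27, exact binomial test) was small, and its interval was the narrowest of all, with a width of 0.06. The ratio was 0.08 after the shift by GC content and length. *Asah1*, acid ceramidase, had 3728 and 2687 counts and a log2 ratio of -0.09 (-0.16 to -0.01, adjusted p = 0.0504, exact binomial test). *Lipa*, acid lipase, had 1965 and 1646 counts (0.13, 0.04 to 0.23), and *Ppt1*, a palmitoyl thioesterase, had 1665 and 1404 (0.14, 0.04 to 0.24).

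The phosphatases, nucleotidases and nucleases numbered 6, of which 4 were tested and 0 passed the exact binomial test (adjusted p under 0.05). Over all genes tested 18.6% were higher and 16.8% lower. *Acp2*, lysosomal acid phosphatase, had 1002.42 counts in the control library against 853.95 in *Myl3*-KO (log2 ratio 0.15, 0.02 to 0.29), but its FPKM values of 14 and 13.88 gave a log2 ratio of -0.01, and it overlaps *Ddb2*. *Entpd4* and *Entpd4b* are near-identical copies, and the estimated counts of 334.34 and 260.47 for *Entpd4* and 10.66 and 8.53 for *Entpd4b* show that reads were divided between them. Their sum of 345.00 and 269.00 counts gave a log2 ratio of 0.03, so the pair was level.

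The 59 enzymes and activators of these 5 roles thus held 46 tested genes, of which 15 were higher (32.6%) and 1 was lower (2.17%) by the exact binomial test (adjusted p under 0.05), beside 18.6% and 16.8% of all genes tested. Their median log2 ratio was 0.12, and 39 of the 46 were above 0. The 55 genes of membrane, pump, transport and sorting held 49 tested genes, of which 16 were higher (32.7%) and 6 lower (12.2%), with a median of 0.07 and 29 above 0. These counts use scaling by library totals, and over all 95 genes such counts moved with the scaling. The difference between these groups of genes was not tested, since genes of 1 pair of libraries are not replicates.

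The membrane glycoproteins line or span the lysosomal membrane. Of 11 genes, 9 were tested, and their median log2 ratio was -0.03. By the exact binomial test (adjusted p under 0.05) 3 were higher (33.3%) and 2 lower (22.2%), beside 18.6% and 16.8% of all genes tested. *Lamp2*, which also takes part in chaperone-mediated autophagy, had 9884 counts in the control library against 6730 in *Myl3*-KO, or 561 and 499 CPM. Its log2 ratio was -0.17 (-0.21 to -0.12, adjusted p = 3.12e-12, exact binomial test), and -0.08 after the shift by GC content and length. *Lamp1* had 11960 and 9496 counts and a log2 ratio of 0.05 (0.01 to 0.09, adjusted p = 0.0242, exact binomial test), which did not meet the test with TMM factors (adjusted p = 0.327) or DESeq2 size factors (0.261). *Cd63* had 12786 and 9447 counts and a log2 ratio of -0.05 (-0.09 to -0.01, adjusted p = 0.0304, exact binomial test) that was -0.16 after the same shift. Scaled by library totals, the counting intervals of *Lamp1* and *Lamp2* lay on opposite sides of 0. *Cd68*, a glycoprotein of macrophage lysosomes, had 18 and 16 counts.

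The transporters, channels and neuronal ceroid lipofuscinosis proteins numbered 7, of which 6 were tested. By the exact binomial test (adjusted p under 0.05) 2 were higher (33.3%) and 0 lower, beside 18.6% and 16.8% of all genes tested. *Ctns* (ENSMUSG00000005949, chromosome 11 from 73183596 to 73199042, minus strand) encodes cystinosin, which exports cystine from the lysosome. It had 631 counts in the control library against 684 in *Myl3*-KO, or 13.89 and 19.62 FPKM, and its log2 ratio was 0.50 (95% interval 0.34 to 0.66, adjusted p = 4.66e-09, exact binomial test). This ratio lay at the limit, and it was 0.48 with TMM factors and with DESeq2 size factors, which ends the call. *Mcoln1* had 718 and 698 counts and a log2 ratio of 0.35 (0.19 to 0.50, adjusted p = 5.58e-05, exact binomial test). *Cln3* had 132 and 112 counts, and its log2 ratio of 0.15 (-0.23 to 0.52) was not resolved from 0.

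**Figure D3:**
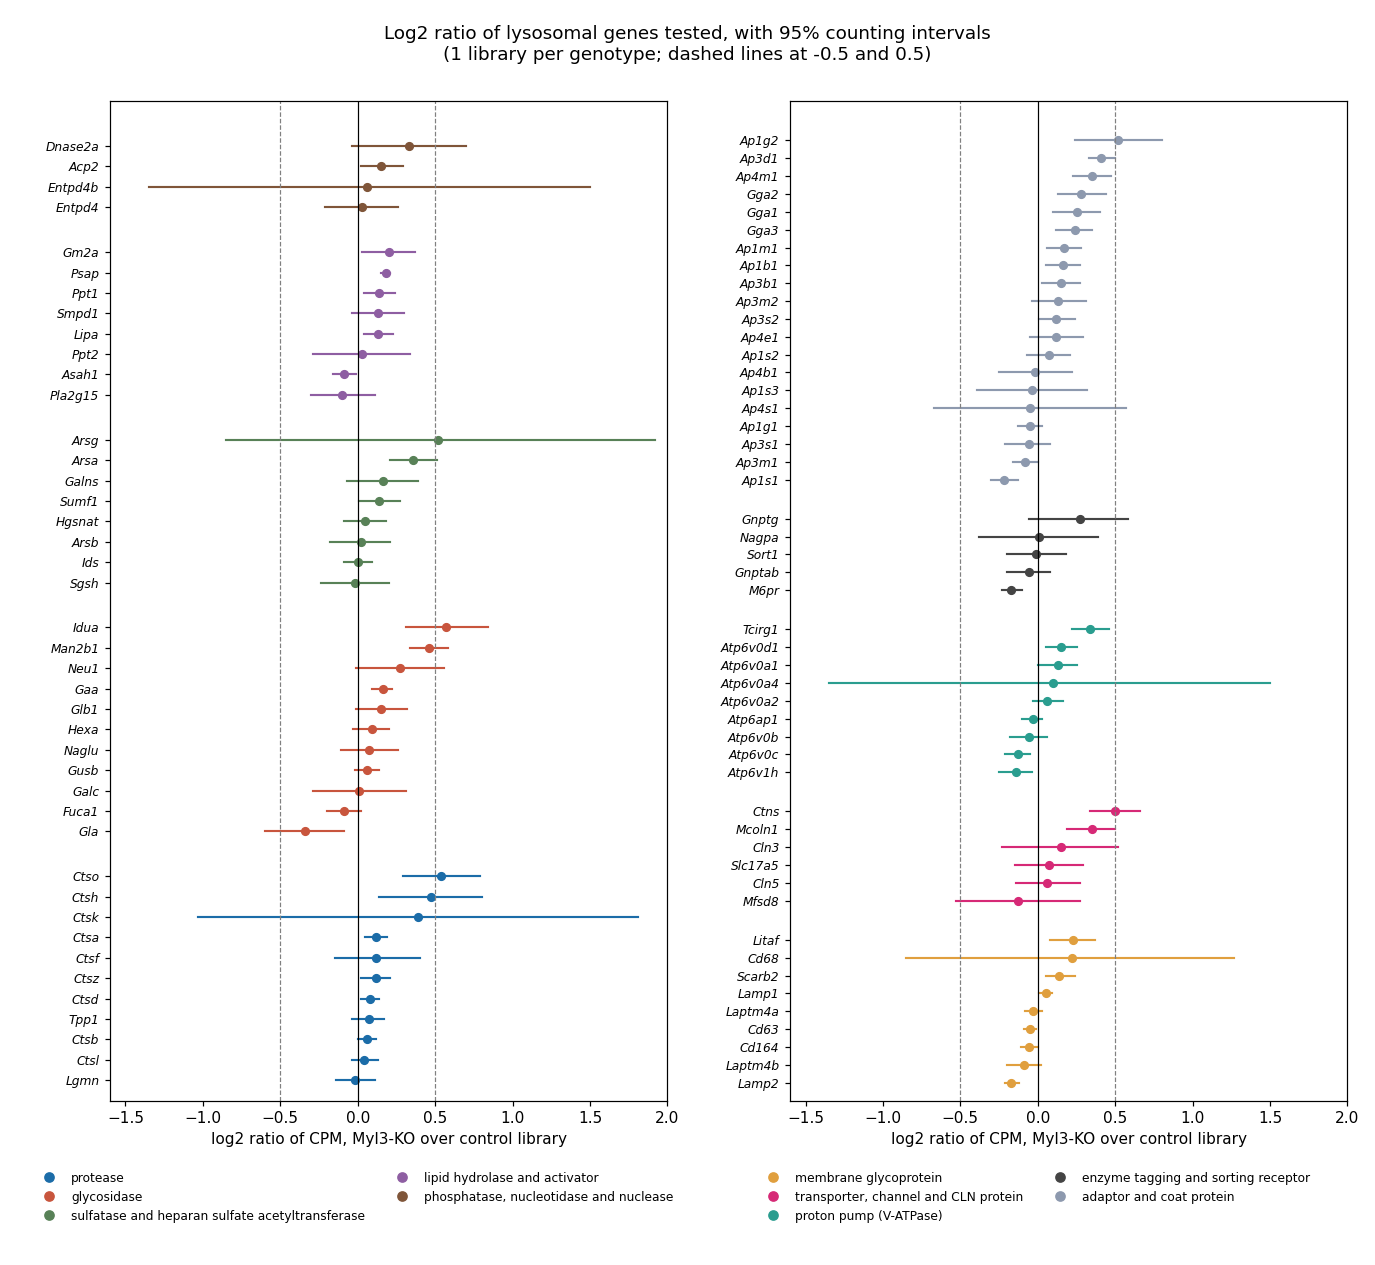
Log2 ratio of CPM in *Myl3*-KO over control (horizontal axes) for 91 of the 95 lysosomal genes tested, grouped and coloured by role, with the enzymes on the left and the other roles on the right. Points are the ratios of 1 library per genotype, bars are 95% Clopper-Pearson counting intervals and dashed lines mark -0.5 and 0.5. *Idua*, *Ctso*, *Ap1g2* and *Ctns* lie at or beyond the right dashed line with intervals above 0, and *Arsg* does so with an interval that crosses 0.

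The proton pump is made of a membrane sector, V0, and a catalytic sector, V1. The pathway column holds 10 subunits, all but *Atp6v1h* and the accessory *Atp6ap1* belonging to V0, and 9 of them were tested. Their median log2 ratio was 0.06. By the exact binomial test (adjusted p under 0.05) 2 were higher (22.2%) and 2 lower (22.2%), beside 18.6% and 16.8% of all genes tested. *Atp6v0c*, the ring subunit, had 3312.62 counts in the control library against 2316 in *Myl3*-KO (log2 ratio -0.13, -0.21 to -0.05), and *Atp6ap1* had 4874 and 3642 (-0.03, -0.10 to 0.03). *Atp6v1h* had 1717 and 1190 counts (-0.14, -0.25 to -0.04), whereas *Tcirg1*, the a3 subunit best known from osteoclasts, had 1093 and 1060 (0.34, 0.22 to 0.46). The summed level of these 10 genes was 970 CPM in the control library against 973 CPM in *Myl3*-KO. These subunits thus lay on both sides of 0 while their own sum was level.

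The remaining subunits come from a list of 15 V1, V0e and accessory genes that the pathway column does not hold. Of these 11 were tested, 0 were higher and 4 (36.4%) were lower by the exact binomial test (adjusted p under 0.05), beside 18.6% and 16.8% of all genes tested. Their median log2 ratio was -0.07, and their summed level was 1030 CPM for the control and 952 CPM for *Myl3*-KO. The lower ones were *Atp6v1a* (2645 and 1790 counts, log2 ratio -0.18), *Atp6v1e1* (2778 and 1887, -0.17), *Atp6v0e* (1963 and 1265, -0.25) and *Atp6ap2* (2253 and 1549, -0.15).

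The tagging enzymes and sorting receptors mark hydrolases in the Golgi and carry them. All 5 were tested. By the exact binomial test (adjusted p under 0.05) 0 were higher and 1 lower (20.0%), beside 18.6% and 16.8% of all genes tested. *M6pr*, the cation-dependent mannose phosphate receptor, had 4469 counts in the control library against 3044 in *Myl3*-KO, or 254 and 226 CPM. Its log2 ratio was -0.17 (-0.23 to -0.10, adjusted p = 6.66e-06, exact binomial test), and -0.10 after the shift by GC content and length. *Gnptab*, a subunit of the enzyme that makes the tag, had 960 and 704 counts (-0.06, -0.20 to 0.08). The other mannose phosphate receptor, *Igf2r*, was left out by the rule and had 2664 and 2639 counts, a log2 ratio of 0.37 (0.29 to 0.45, adjusted p = 3.01e-19, exact binomial test). The receptors thus differed in sign.

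The adaptor and coat proteins build the carriers that leave the Golgi and endosomes. Of 22 genes, 20 were tested, and their median log2 ratio was 0.13. By the exact binomial test (adjusted p under 0.05) 9 were higher (45.0%) and 1 lower (5.00%), beside 18.6% and 16.8% of all genes tested. *Ap1g2* (ENSMUSG00000040701, chromosome 14 from 55098575 to 55106593, minus strand) encodes a γ subunit of the AP-1 complex. It had 206 counts in the control library against 226 in *Myl3*-KO, or 4.38 and 6.27 FPKM, and its log2 ratio was 0.52 (95% interval 0.24 to 0.80, adjusted p = 0.00116, exact binomial test). It overlaps *Thtpa*, which had 383 and 274 counts and a log2 ratio of -0.10, and its ratio was 0.49 with TMM factors, which ends the call. *Ap1s1*, the most abundant adaptor gene and another AP-1 subunit, had 2773 and 1827 counts, or 157 and 136 CPM. Its log2 ratio was -0.22 (-0.30 to -0.13, adjusted p = 5.92e-06, exact binomial test). *Ap3m1* had 3093.03 and 2240.91 counts (-0.08, -0.16 to 0.00) and overlaps *Vcl*. *Ap3d1*, the δ subunit of AP-3, had 2203 and 2244 counts and a log2 ratio of 0.41 (0.33 to 0.50, adjusted p = 8.44e-20, exact binomial test). Ratios of AP-1 subunits thus lay on both sides of 0. Those of AP-3 did so too, but *Ap3m1* and *Ap3s1*, which were below 0, did not pass the exact binomial test (adjusted p = 0.116 and 0.550). The 3 GGA adaptors, *Gga1*, *Gga2* and *Gga3*, had log2 ratios of 0.25, 0.28 and 0.24, each with an interval above 0.

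The next comparison set the genes with the CLEAR core beside the rest. The 9 genes with the core had a median log2 ratio of 0.14, between -0.34 in *Gla* and 0.35 in *Mcoln1*, and 7 of the 9 were above 0. The 14 genes with an E-box but no core had a median of 0.07, and 11 of them were above 0. The 53 tested genes with a promoter in the table but no E-box had a median of 0.12 and included the 4 called. Of these 53 genes, 37 were above 0. Apart from *Gla*, the genes with the core lay within the range of the genes with no E-box, from -0.22 to 0.57. Of the factors that bind the element, *Tfe3* had 2195 counts in the control library against 1824 in *Myl3*-KO (log2 ratio 0.12, adjusted p = 0.0297, exact binomial test). *Tfeb* had 102 and 73 counts (-0.10, -0.55 to 0.35), *Mitf* had 129 and 82 (-0.27, -0.69 to 0.14) and *Tfec* had 0 in both.

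Lists of genes around the lysosome were described in the same way. The 10 pathway genes left out by the rule held 9 tested genes, with a median log2 ratio of 0.20. By the exact binomial test (adjusted p under 0.05) 4 of these 9 were higher (44.4%) and 1 lower (11.1%), and 0 were called. Among them *Npc1* and *Npc2*, which export cholesterol, had ratios of 0.35 and 0.20. All 29 genes of mTORC1, Ragulator and BORC, which signal from and move lysosomes, were tested, with a median of 0.04. By the exact binomial test (adjusted p under 0.05) 5 were higher (17.2%) and 3 lower (10.3%). Of 15 genes of fusion between late endosomes and lysosomes, all tested, 4 were higher (26.7%) and 2 lower (13.3%), with a median of 0.08. Over all genes tested 18.6% were higher and 16.8% lower by this test. None of the genes in these lists was called, where 4.03% of all genes tested were called higher and 1.37% lower.

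Other measures moved with the ratios. Across the 95 lysosomal genes the log2 ratio had a Spearman rho of 0.28 with the GC content of the longest transcript and of -0.29 with the mean FPKM, and across all genes tested the values were 0.24 and -0.23. These points are genes of the same 2 libraries and share their depth and preparation. The 32 genes of lowest GC content, from 35.4% to 48.7%, had a median ratio of 0.05, the next 32 had 0.08 and the 31 of highest GC content, from 53.2% to 62.2%, had 0.15. All genes of the same GC ranges had medians of -0.05, 0.04 and 0.10. When each gene's ratio was shifted by the median of genes of like GC content and length, an alternative chosen after the data were seen, the lysosomal median was 0.06 beside 0.00 for all genes. After this shift 68 of the 95 lysosomal genes were above 0, as many as before it. The calls that met the limit were then *Ctso* and *Ctns*, while *Idua* was at 0.42 and *Ap1g2* at 0.43. The part of GC content in the differences was not tested further.

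**Figure D4:**
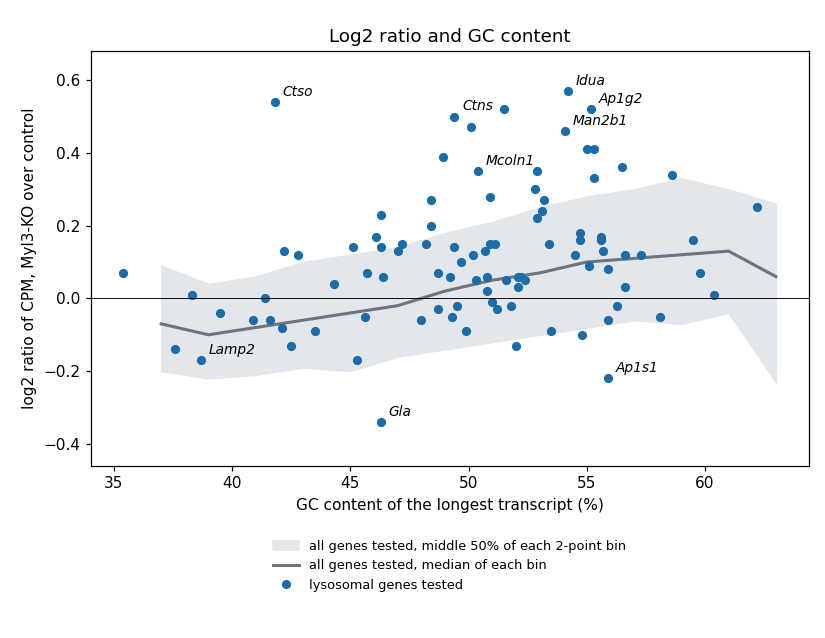
Log2 ratio of CPM in *Myl3*-KO over control (vertical axis) against GC content of the longest transcript (%, horizontal axis). Points are the 95 lysosomal genes tested, and the line and band are the median and the middle 50% of all genes tested in bins of GC content. The median of all genes is below 0 at low GC content and above 0 at high GC content, and the lysosomal points scatter around it.

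Cells with specialised lysosomes were looked for through their markers. Of 14 macrophage markers, 9 were at 0 in both libraries, among them *Adgre1*, *Tyrobp* and *C1qa*, 0 were called, and the summed level was 5.06 CPM in the control library against 4.67 CPM in *Myl3*-KO. Of 11 osteoclast markers, 3 were at 0 in both libraries and the summed level was 37.8 and 45.0 CPM, of which *Nfatc1*, a transcription factor also used outside osteoclasts, gave 33.7 and 37.5 CPM. *Itgb3*, an integrin gene of osteoclasts and platelets, was the only one called, with 23 and 49 counts and a log2 ratio of 1.48 (0.73 to 2.26). The 6 endothelial markers summed to 1.65 and 3.04 CPM and the 8 muscle markers to 0.795 and 0.594 CPM, with 0 called in either list. Among 8 fibroblast markers *Pdgfra* was called higher (120 and 140 counts, log2 ratio 0.61), and *Dcn* (631 and 155, -1.64) and *Lum* (272 and 81, -1.36) were called lower. Of all genes tested, 4.03% were called higher and 1.37% lower. The part of these markers in the lysosomal values was not tested.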

How the data were processed

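RNA sequencing of primary chondrocytes, with 1 control and 1 *Myl3*-KO library, was analysed. The authors deposited 2 values per gene and library, an unnormalized expected count (an estimate that need not be whole) and an FPKM value. The aligner, the counting tool and the use of strand in counting are not given in the sources used here, and the submitters' processing notes name GRCm38 and mm10. The control column is headed NC and was read as control because the other is headed KO. The table's pathway column supplied the membership.

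The library totals were 17612434.91 and 13477976.98 expected counts. Rounding to whole counts preceded the exact binomial test and the Clopper-Pearson intervals, and log2 ratios used unrounded values. With 1 library per genotype the edgeR quasi-likelihood test and the DESeq2 test lack residual degrees of freedom, so neither was run. The test was also run on simulated counts that held counting error alone. These cannot show how it behaves with spread between cultures or animals.

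The members, roles and lists were chosen with earlier results of these data known. The genes named are those called, the 2 with the highest mean FPKM in each role, the highest and lowest ratios, members at 0 in a library, *Glb1*, *Fuca1*, *Ctsk*, *Acp5*, *Lamp1*, *Lamp2*, *Ctsb*, *Ctsd*, *Hexa*, *Neu1*, *Psap*, *Cd63*, *Mcoln1*, *M6pr*, called genes of the other lists, and *Tfeb*, *Tfe3*, *Mitf*, *Npc1*, *Npc2* and *Igf2r*. All others were chosen after their values were seen. The results of some single members are not reported here.

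Coordinates, transcript GC content, lengths and overlaps come from GENCODE M21 on GRCm38, which held all 114 members and may differ from the annotation of the counts, and 25 members overlap another counted gene. Promoters come from RefSeq on GRCm38.p6. The alternatives were TMM factors, DESeq2 size factors, other filters, an added count, the FPKM ratio, other limits, an edgeR exact test under preset coefficients of variation, and leaving out the adaptor role. A shift by GC content and length and the exclusion of overlapping or non-whole members were added after the data were seen. The software was R 4.3.3 (DESeq2 1.42.0, edgeR 4.0.16) and Python 3.11.15 (scipy 1.17.1, pandas 2.3.3, numpy 2.4.6, matplotlib 3.10.9).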

Additional observations from a re-analysis of the deposited data

How the results depend on the processing

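The number of lysosomal genes called higher was 4, and it moved with every choice that bears on the limit or the spread. It was 2 with TMM factors (*Idua* and *Ctso*), 2 with DESeq2 size factors, 2 with the FPKM ratio (*Ctso* and *Ap1g2*), 2 after the shift by GC content and length (*Ctso* and *Ctns*), and 2 of 68 without members that overlap a counted gene or hold a count that is not whole. Over all genes tested, 501 were called higher by library totals, 447 with TMM factors and 449 with DESeq2 size factors. That number was 504 with the FPKM ratio and 335 after the shift. The lysosomal number was 31 with no limit on the ratio and 0 with a limit of 1, where all genes gave 2307 and 143. It was 0 with edgeR's exact test at a preset coefficient of variation of 0.1, 0.2 or 0.4, where all genes gave 41, 3 and 1 higher. The number called lower was 0 and became 7 with no limit on the ratio, where all genes gave 170 and 2090. The median log2 ratio of 0.10 ran from 0.06 to 0.12 over its alternatives. Of 19 members followed under 10 alternatives, 170 values kept their side of the limits and 20 lost the call, and 0 changed sign. The preset coefficients of variation and the other filters leave the ratio itself as it was. Under them the sign could not change, and a ratio inside the limits could not gain a call. Over all 95 tested members, the FPKM ratio had the other sign in 4, among them *Acp2* (0.15 from counts and -0.01 from FPKM) and *Ctsl* (0.04 and -0.12). The values that lost the call belong to *Idua*, *Ctso*, *Ctns* and *Ap1g2*, the only members with a call to lose. None of these 4 genes kept its call under every alternative. Most of the values that kept their side belong to members that were not called.

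No paired analysis was possible because each genotype had 1 library, and leaving out a replicate was not possible for the same reason. Depth limits the 6 tested members with under 100 counts over both libraries, whose intervals reach a width of 2.86 on the log2 scale, against a median width of 0.27. The spread between cultures or animals is not measured by these libraries.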
